A study of Mus musculus with 6 samples.

Results

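Metallothioneins and the genes of iron and zinc handling were compared between the kidneys of WT and Selenbp1-KO mice. The members were chosen by gene name: every non-control probe of the arrays whose deposited gene name was Mt1, Mt2, Slc30a1, Slc39a14, Tfrc, Fth1, Ftl1, Slc40a1, Slc11a2, or Slc11a1. All 10 genes were found, with 17 of the 56605 non-control probes, and 5 of them had several probes. The brightest probe by the mean of all 6 arrays stands for each gene, and its other probes are given beside it. Of the 10 genes, 9 had overlapping WT and Selenbp1-KO values. The exception was the macrophage metal transporter Slc11a1, which after scaling had higher values in every Selenbp1-KO mouse. It passed an unadjusted p of 0.05 and did not pass adjustment over all probes. The authors also list this gene as higher in the same arrays.

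The mice were males of the C57BL/6J background, 8 weeks old and fasted for 20 h, with 3 WT (replicates 2, 3, and 4) and 3 Selenbp1-KO animals (replicates 1, 2, and 3), each represented by 1 array. The WT animals came from a supplier, and the sources used here describe neither the deleted sequence nor a littermate relation between the genotypes. RNA came from the whole left kidney, so fewer cells of a type and less RNA per cell cannot be told apart. All 6 arrays were on 1 slide and in 1 scan, with WT replicates 2 and 3 in slide row 1 and the other 4 arrays in row 2. The probe of Selenbp1 fell in Selenbp1-KO kidneys by 2.96 on the log2 scale (adjusted p = 0.0021 from limma), with every array in the genotype of its label. The proximal tubule markers Slc34a1, Lrp2, and Cubn and all 5 others of that list were well above background on every array, and none of the 8 passed an unadjusted p of 0.05.

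Metallothioneins are small cysteine-rich proteins that bind zinc, copper, and cadmium, and their genes are switched on by zinc through the transcription factor Mtf1, which binds metal response elements in their promoters. Slc30a1 moves zinc out of the cell and is a target of the same factor. Iron enters cells through the transferrin receptor Tfrc and the divalent metal transporter Slc11a2, is stored in ferritin (Fth1 and Ftl1), and leaves through ferroportin (Slc40a1). In the kidney, the proximal tubule takes up filtered metals and metal-binding proteins.

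The 250 bases before the RefSeq start of Mt1, Mt2, and Slc30a1 are shown (assembly GRCm38.p6, all on the plus strand). They were chosen because these 3 members are known to answer to Mtf1, which does not exclude other members. Capitals mark the core of the metal response element, searched as TGCACNC and TGCGCNC on both strands. The windows are chr8:94178839-94179088 for Mt1, chr8:94172368-94172617 for Mt2, and chr1:191906531-191906780 for Slc30a1.
Mt1 promoter: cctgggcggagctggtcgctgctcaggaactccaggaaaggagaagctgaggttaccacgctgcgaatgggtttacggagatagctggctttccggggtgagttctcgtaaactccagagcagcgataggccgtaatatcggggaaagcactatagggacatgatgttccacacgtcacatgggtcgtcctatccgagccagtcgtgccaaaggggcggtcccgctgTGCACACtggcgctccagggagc
Mt2 promoter: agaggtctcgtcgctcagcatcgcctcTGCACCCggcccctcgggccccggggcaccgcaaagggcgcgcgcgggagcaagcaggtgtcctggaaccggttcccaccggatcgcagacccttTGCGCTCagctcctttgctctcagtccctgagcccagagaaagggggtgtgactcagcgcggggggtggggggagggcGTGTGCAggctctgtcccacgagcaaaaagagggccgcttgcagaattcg
Slc30a1 promoter: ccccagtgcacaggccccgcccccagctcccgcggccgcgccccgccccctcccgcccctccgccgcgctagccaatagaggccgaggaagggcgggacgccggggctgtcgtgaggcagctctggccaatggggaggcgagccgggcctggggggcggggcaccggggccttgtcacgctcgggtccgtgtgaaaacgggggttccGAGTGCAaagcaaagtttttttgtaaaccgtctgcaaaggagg
The window of Mt2 held 3 matches, whose first bases lie at −223, −128, and −50 from the start, and the windows of Mt1 and Slc30a1 held 1 each. At least 1 match was found in 21.4% of all 32851 promoter windows of this length, and at least 3 in 1.26%. RefSeq promoters were given for 7 of the 10 members, and not for Slc39a14, Slc40a1, or Slc11a2. One Tfrc window (chr16:32608646-32608895) held 2 matches that overlap each other, and the other windows of Tfrc, Fth1, Ftl1, and Slc11a1 held none. Only these windows were searched, so elements after the RefSeq start, or farther before it, are not counted. A match is a description of the letters only.

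The arrays read the mRNAs with 60-base probes, of which the first 30 bases are shown for the members discussed most.
Mt1 probe: cctgtttactaaacccccgttttctaccga
Mt2 probe: agaagcctagccttttttgtacaaccctga
Fth1 probe: atgtcaggctgccttcatcttttctataag
Ftl1 probe: gtaacccccctggagcctctgtcaagtctt
Slc11a1 probe: ccggtttccagtttggacaagtgctttacc
The longest run shared by the whole Mt1 and Mt2 probes was 7 bases, and the Fth1 and Ftl1 probes shared at most 5. No probe of another gene on the array shared a run of 25 bases with any member's probe. On mm9, the build of the files, the probes lie at chr8:96704165-96704224 (Mt1), chr8:96697371-96697430 (Mt2), chr19:10059485-10059544 (Fth1), chr7:52713318-52713377 (Ftl1), and chr1:74432161-74432220 (Slc11a1).

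Values below are log2 signals relative to the 75th percentile of the same array, and a difference is Selenbp1-KO minus WT on this scale with the standard error from limma. All 10 brightest probes, and 16 of the 17 probes, were well above background on all 6 arrays. Of the members, 1 of 10 (Slc11a1, higher) had an unadjusted p under 0.05, and none had an adjusted p under 0.05. The same criterion called 8.00% of all 37028 genes, 6.87% higher and 1.13% lower in Selenbp1-KO kidneys, and the adjusted criterion called 0.00540%. WT and Selenbp1-KO values did not overlap for 1 of 10 members, against 14.1% of all genes. The median difference was 0.05 over the members and 0.13 over all genes. Of all 37028 genes, 19265 had a signal well above background on all arrays of WT, of Selenbp1-KO, or of both. All 10 members are in this part, of which 5.79% were called. With only such probes tested, the median over genes was 0.016, below that of the members, and 10.4% were called. A share of 1 in 10 is therefore near the background. The 95% intervals of the other 9 members all included 0 and together ran from −0.38 to 0.55, which is 0.767-fold to 1.46-fold. For a single gene, the smallest p that an exact permutation of 3 and 3 arrays can reach is 0.10.

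**Figure D1:**
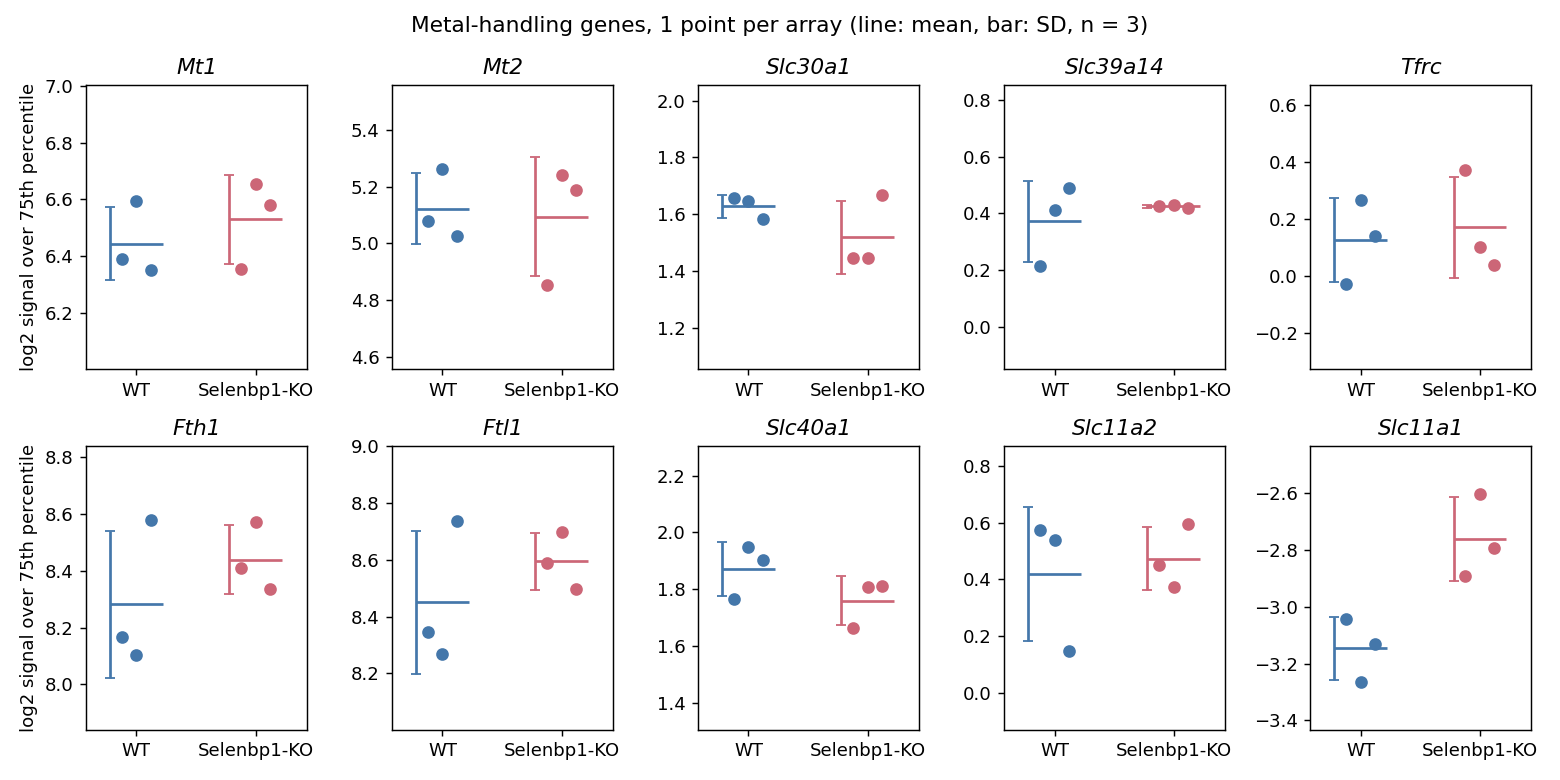
Log2 signal relative to the 75th percentile of the array, on the y axis, for the brightest probe of each of the 10 genes, with 1 point per array, the group mean as a line, and the SD as a bar (n = 3). Each panel spans 1 log2 unit. In 9 panels the genotypes overlap, and in that of Slc11a1 every Selenbp1-KO point lies above every WT point.

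Mt1, which encodes the main inducible metallothionein together with Mt2, had a log2 signal of 6.39, 6.59, and 6.35 in WT replicates 2, 3, and 4, and of 6.35, 6.66, and 6.58 in Selenbp1-KO replicates 1, 2, and 3. The lowest values of both genotypes were alike, and Selenbp1-KO replicate 2 was the highest of the 6. The difference was 0.09 (standard error 0.13, adjusted p = 0.782 from limma), with a 95% interval from 0.850-fold to 1.32-fold. A second Mt1 probe, designed on the predicted transcript XM_006530752, lies at chr8:96703844-96703903 and differed by −0.04 (standard error 0.18). It was far dimmer, with a signal before scaling of 49.3 to 95.8, against 42381 to 72490 for the brightest Mt1 probe.

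Mt2 had a log2 signal of 5.08, 5.26, and 5.02 in the WT replicates and of 4.85, 5.24, and 5.19 in the Selenbp1-KO replicates. Selenbp1-KO replicate 1 was the lowest array and WT replicate 3 the highest, and the genotypes overlapped. The difference was −0.03 (standard error 0.15, adjusted p = 0.947 from limma), with a 95% interval from 0.767-fold to 1.26-fold. Neither metallothionein had an unadjusted p under 0.05 in any of 19 alternative processings, in which the difference ran from −0.02 to 0.18 for Mt1 and from −0.12 to 0.09 for Mt2.

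The 2 metallothioneins varied together across the 6 arrays. Pearson's r between Mt1 and Mt2 was 0.89 (exact permutation p = 0.025, adjusted p = 0.0625 over 5 pairs of member probes chosen after their values were seen), and Spearman's rho was 0.89 (exact permutation p = 0.0333, adjusted p = 0.0832). Without the 2 arrays farthest from the median of Mt1 r was 0.90, and with quantile normalization it was 0.93. The highest 3 arrays for both genes were WT replicate 3 and Selenbp1-KO replicates 2 and 3. These 3 arrays come from both genotypes. Neither coefficient passed the adjustment over the 5 pairs. Over the 4 arrays of slide row 2 r was 0.91, given as a description.

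Slc30a1, the zinc exporter of the plasma membrane (NM_009579, chr1:193736760-193736819 of mm9), had a log2 signal of 1.66, 1.65, and 1.58 in the WT replicates and of 1.44, 1.44, and 1.67 in the Selenbp1-KO replicates. Selenbp1-KO replicates 1 and 2 were below all WT arrays, and Selenbp1-KO replicate 3 was above them. The difference was −0.11 (standard error 0.11, adjusted p = 0.649 from limma). It was negative in all 19 alternatives, several of which leave the estimate unchanged, and never had an unadjusted p under 0.05. Slc39a14, which brings zinc and non-transferrin-bound iron into cells (NM_001135151, chr14:70703394-70703453), had 0.21, 0.41, and 0.49 in the WT replicates and 0.43, 0.43, and 0.42 in the Selenbp1-KO replicates. All Selenbp1-KO values lay inside the WT range, and the difference was 0.05 (standard error 0.11, adjusted p = 0.852 from limma).

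Tfrc, the receptor that carries transferrin-bound iron into the cell, was read by 2 probes of NM_011638. The brighter, at chr16:32632255-32632314, had a log2 signal of −0.03, 0.27, and 0.14 in the WT replicates and of 0.37, 0.10, and 0.04 in the Selenbp1-KO replicates. Its difference was 0.04 (standard error 0.14, adjusted p = 0.905 from limma). That of the second was −0.09 (standard error 0.18). The genotypes overlapped for both probes.

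Slc11a2, the transporter of ferrous iron across the apical membrane and out of endosomes, was read by 4 probes. Its transcripts differ at the 3′ end, and the probes separate them: that of NM_001146161 lies at chr15:100223347-100223406, and those near the 3′ end of NM_008732 lie at chr15:100218333-100218392 and chr15:100219212-100219271. The NM_001146161 probe had a log2 signal of 0.57, 0.54, and 0.15 in the WT replicates and of 0.45, 0.37, and 0.59 in the Selenbp1-KO replicates, a difference of 0.05 (standard error 0.15, adjusted p = 0.894 from limma). The first NM_008732 probe had 0.26, 0.29, and 0.69 in the WT replicates and 0.30, 0.26, and 0.28 in the Selenbp1-KO replicates, a difference of −0.13 (standard error 0.14). WT replicate 4 was therefore the lowest array for one 3′ end and the highest for the other. With the slide row as a block, the difference of the NM_001146161 probe was 0.33 in place of 0.05, with no unadjusted p under 0.05. The other probes of NM_008732 differed by −0.06 and 0.06. No Slc11a2 probe passed the unadjusted criterion.

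Fth1, the heavy subunit of ferritin with its ferroxidase activity (NM_010239), had a log2 signal of 8.17, 8.10, and 8.58 in the WT replicates and of 8.41, 8.57, and 8.34 in the Selenbp1-KO replicates. The brightest probe of Ftl1, the light subunit (NM_010240), had 8.35, 8.27, and 8.74 in the WT replicates and 8.59, 8.70, and 8.50 in the Selenbp1-KO replicates. For both, WT replicate 4 was the highest array and WT replicates 2 and 3 were the lowest. The difference was 0.16 for Fth1 (standard error 0.16, adjusted p = 0.66 from limma) and 0.14 for Ftl1 (standard error 0.16, adjusted p = 0.676).

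The direction of both ferritin genes turned with the scaling of the arrays: with quantile normalization the difference was −0.08 for Fth1 and −0.15 for Ftl1, the latter with an unadjusted p under 0.05. Without WT replicate 4, in contrast, both had an unadjusted p under 0.05 and were higher, by 0.30 and 0.29. The signals before scaling ran from 181537 to 206430 for Fth1 and from 198054 to 231580 for Ftl1, ratios of 1.14 and 1.17 between the highest and the lowest array. Fth1 read 204213, 206430, and 198426 in the WT replicates and 192416, 181537, and 188560 in the Selenbp1-KO replicates. Ftl1 read 231580, 231320, and 221416 in the WT replicates and 218070, 198054, and 210867 in the Selenbp1-KO replicates. For both, all Selenbp1-KO signals before scaling lay below all WT signals. The 75th percentile by which they were divided ran from 477 to 751, a ratio of 1.57, and the signals of Mt1 and Mt2 had ratios of 1.71 and 1.76. The ferritin probes varied less between arrays than the scale did, and the part of this in their differences was not tested. No spot was marked as saturated.

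Pearson's r between Fth1 and the brightest Ftl1 probe was 0.996 over the 6 arrays, and Spearman's rho reached its maximum. The exact permutation p was 0.00139 for r (adjusted p = 0.00695 over the 5 pairs) and 0.00278 for rho (adjusted p = 0.0139). Without the 2 arrays farthest from the median, which leaves the 4 arrays of slide row 2, r was 0.99. Both probes were divided by the same scale of each array, which varied more between arrays than their signals before scaling did. These p-values therefore cannot tell a shared change of the 2 mRNAs from the shared scale, and no relation is read from them. With quantile normalization r was 0.35, so this coefficient depended on the scaling, unlike that of Mt1 and Mt2. The second Ftl1 probe, whose coordinates span an intron (chr7:52714014-52714495), had a log2 signal of 6.69, 6.82, and 6.68 in the WT replicates and of 6.83, 6.61, and 6.85 in the Selenbp1-KO replicates. It differed by 0.03 (standard error 0.11), and its r with the brightest Ftl1 probe was −0.47 (exact permutation p = 0.342, adjusted p = 0.342). With quantile normalization its difference was −0.08 and this r was 0.35, so both signs turned with the scaling. No direction is given for ferritin mRNA.

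**Figure D2:**
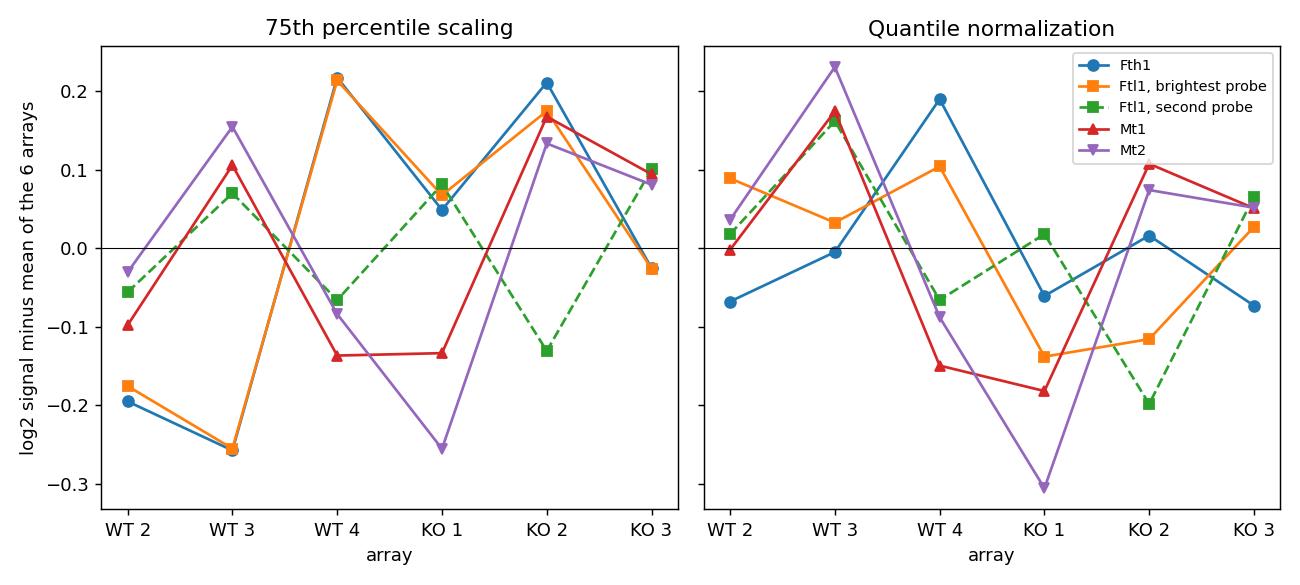
Log2 signal of the ferritin and metallothionein probes on each array, minus the mean of the 6 arrays, on the y axis, with scaling by the 75th percentile on the left and quantile normalization on the right. Lines join the arrays of 1 probe and have no order. Fth1 and the brightest Ftl1 probe coincide on the left (r = 0.996) and part on the right (r = 0.35), while Mt1 and Mt2 keep together on both sides (0.89 and 0.93).

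Slc40a1 encodes ferroportin, the iron exporter (NM_016917, chr1:45965255-45965314). Its brightest probe had a log2 signal of 1.77, 1.95, and 1.90 in the WT replicates and of 1.66, 1.81, and 1.81 in the Selenbp1-KO replicates. The genotypes overlapped, with Selenbp1-KO replicate 1 the lowest array. The difference was −0.11 with a standard error of 0.11 (adjusted p = 0.634 from limma). It stayed negative in all 19 alternatives, several of which leave the estimate unchanged, and never had an unadjusted p under 0.05. A second probe, designed on an Ensembl transcript, was well above background on 0 of 6 arrays, and no difference is read from it.

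**Figure D3:**
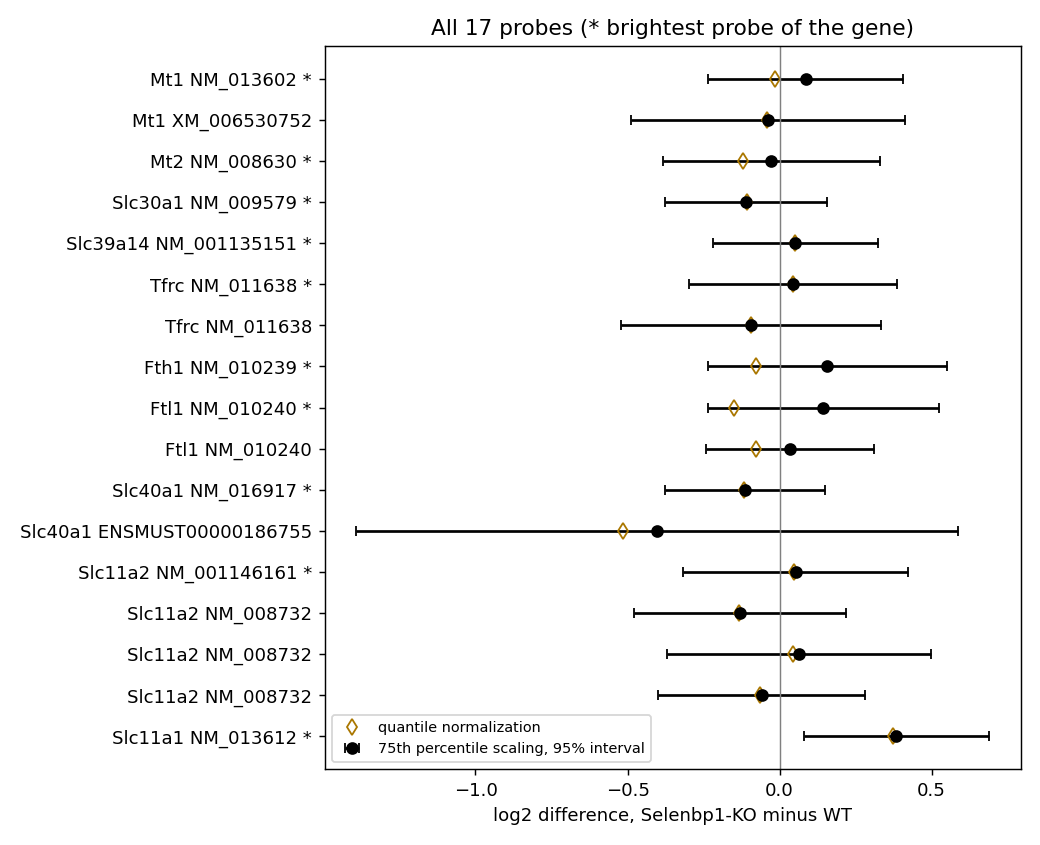
Log2 difference, Selenbp1-KO minus WT, on the x axis for each of the 17 probes, named by gene and accession on the y axis. Points and bars give the difference and its 95% interval with 75th percentile scaling, and open diamonds the difference with quantile normalization. The interval of Slc11a1 (0.08 to 0.69) is the only one without 0, and the diamonds of Fth1 (−0.08) and Ftl1 (−0.15) lie on the other side of 0 from their points.

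Slc11a1, a transporter that pumps divalent metals out of the phagosome of macrophages (NM_013612), had a log2 signal of −3.04, −3.26, and −3.13 in the WT replicates and of −2.89, −2.60, and −2.79 in the Selenbp1-KO replicates. The lowest Selenbp1-KO value exceeded the highest WT value. The difference was 0.38 (standard error 0.12, adjusted p = 0.279 from limma), a ratio of 1.31 with a 95% interval from 1.06 to 1.61, and its unadjusted p was 0.0211 in the fit across all probes. It was positive in all 19 alternatives, from 0.30 to 0.46, and had an unadjusted p under 0.05 in 15. The 4 exceptions were slide row as a block (0.37) and the fits without WT replicate 3 (0.33), Selenbp1-KO replicate 2 (0.30), and Selenbp1-KO replicate 3 (0.40). Before scaling its signal was 86.3, 78.1, and 59.2 in the WT replicates and 76.3, 78.6, and 84.2 in the Selenbp1-KO replicates, with WT replicate 2 the highest and a ratio of 1.46 between the highest and the lowest array, so the separation of the genotypes appeared after scaling. With quantile normalization the difference was 0.37. Within slide row 2, the only row with both genotypes, a single WT array met the 3 Selenbp1-KO arrays.

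Markers of macrophages differed between the genotypes in the same direction as Slc11a1. Among the Selenbp1-KO arrays their summed level was highest in replicate 1, where Slc11a1 was lowest. Of 13 macrophage markers, 8 passed the unadjusted criterion with higher values in the knockout, against 6.87% of all genes. All 13 had a positive difference, against 25336 of all 37028 genes. Their median difference was 0.51, against 0.13 over all genes. Of these markers, 12 were well above background on every array or on 5 of 6. The largest differences were those of Cd163, the hemoglobin scavenger receptor, at 1.01 (standard error 0.33), Lyz2, a lysozyme, at 0.74 (0.17), Mrc1, the mannose receptor, at 0.70 (0.17), and Tyrobp, a signaling adaptor of myeloid cells, at 0.69 (0.11). The summed level of the list, on the linear scale relative to the 75th percentile, was 16.6 to 20.3 in WT and 23.2 to 25.4 in Selenbp1-KO kidneys, a ratio of 1.35. Fcgr1 was well above background on 0 of 6 arrays. Of 7 neutrophil markers, none had an unadjusted p under 0.05, and only S100a8 and S100a9 were well above background on all arrays, with a summed level of 0.217 to 0.614 in WT and 0.349 to 0.630 in Selenbp1-KO kidneys. The part of these cells in the result for Slc11a1 was not tested.

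**Figure D4:**
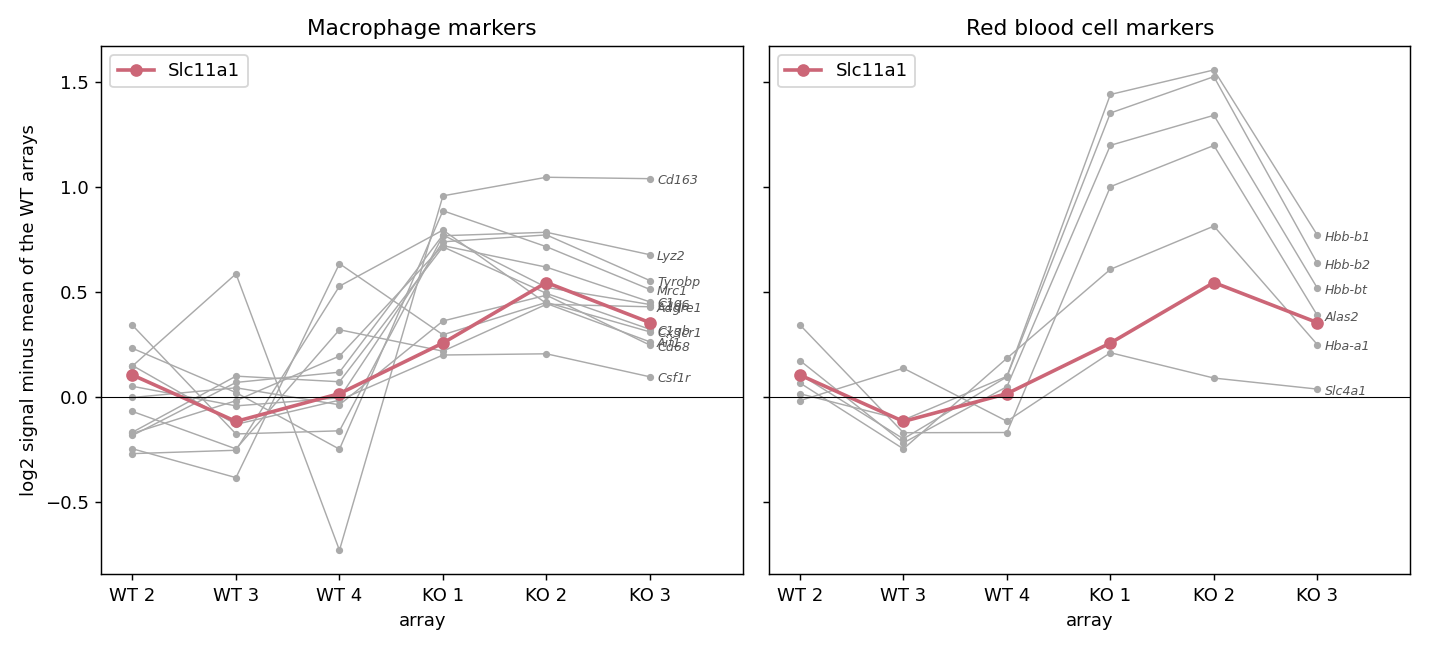
Log2 signal minus the mean of the 3 WT arrays, on the y axis, for Slc11a1 (thick line) on each array, with 12 macrophage markers on the left and the 6 red blood cell markers that were well above background on all arrays on the right (thin lines, named at their end). Lines join the arrays of 1 probe and have no order. On the Selenbp1-KO arrays Slc11a1 and the markers of both panels lie above the WT mean, and Selenbp1-KO replicate 2 is the highest array for Slc11a1 and for the globin genes.

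The other genes of zinc, copper, iron, and heme handling were read from 9 lists with 92 genes tested. Of these, 4 (4.35%) had an unadjusted p under 0.05, all higher in Selenbp1-KO kidneys, against the 8.00% of all genes, and none had an adjusted p under 0.05. Differences were positive for 53 and negative for 39, with a median of 0.05. Among the 78 genes with a signal well above background on all arrays of WT, of Selenbp1-KO, or of both, 3 (3.85%) were called, against 5.79% of all such genes. With quantile normalization 11 of the 92 were called, 5 higher and 6 lower, so the split of directions depended on the scaling.

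The 3 called genes with a signal well above background were Mt3, Cd163, and Alas2. Mt3, a metallothionein known from the brain, had a log2 signal of −1.31, −1.13, and −1.09 in the WT replicates and of −0.82, −0.97, and −0.87 in the Selenbp1-KO replicates. The genotypes did not overlap, and the difference was 0.29 (standard error 0.11, adjusted p = 0.279 from limma), or 0.28 with quantile normalization. Mtf1, the zinc sensor that drives metallothionein genes, had 1.42, 1.37, and 1.58 in the WT replicates and 1.20, 1.35, and 1.29 in the Selenbp1-KO replicates. Every Selenbp1-KO value was below every WT value, with a difference of −0.18 (standard error 0.11, adjusted p = 0.422). Mt4 was well above background on 1 WT array only.

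Of the 9 zinc exporters other than Slc30a1, none was called, with 3 positive and 6 negative differences and 6 genes well above background. Of the 13 other zinc importers, 1 was called, Slc39a12, which was well above background on 0 of 6 arrays and gives no direction. The 11 genes of copper handling had none called, and those well above background on every array differed by between −0.08 (Slc31a1, the copper importer) and 0.17 (Atox1, a copper chaperone). With quantile normalization 2 copper genes passed the criterion, Slc31a1 (−0.11) and Commd1 (0.13), and no zinc transporter did.

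None of the 11 genes of iron uptake and reduction was called, nor any of the 9 of iron storage and delivery or the 12 of iron sensing and hepcidin control. Trf, the plasma iron carrier transferrin, had a log2 signal of 3.32, 3.67, and 2.87 in the WT replicates and of 3.47, 4.06, and 3.65 in the Selenbp1-KO replicates, a difference of 0.44 (standard error 0.25, adjusted p = 0.377 from limma) with overlap. Its lowest and highest arrays, WT replicate 4 and Selenbp1-KO replicate 2, were also those of the summed level of 6 fat tissue markers, which was 15.1 to 53.5 in WT and 22.4 to 134.5 in Selenbp1-KO kidneys. All 6 markers were highest on that Selenbp1-KO array, 3 of them (Plin1, Ucp1, and Cidea) were lowest in Selenbp1-KO replicate 3, and none was called. The part of fat tissue in the values of Trf was not tested. The iron regulatory proteins Aco1 and Ireb2 differed by 0.02 and −0.12, and Ncoa4, which delivers ferritin for degradation, by −0.18, none with an unadjusted p under 0.05. With quantile normalization Ireb2 (−0.13) and Ncoa4 (−0.23) passed that criterion with lower values in Selenbp1-KO kidneys, and the storage list had 3 calls and the sensing list 1.

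Of the 19 genes of heme synthesis, transport, and breakdown, 1 was called, Cd163, which is also 1 of the macrophage markers and was well above background on 2 WT arrays and 3 Selenbp1-KO arrays. Its log2 signal was −4.96, −4.52, and −5.84 in the WT replicates and −4.15, −4.06, and −4.07 in the Selenbp1-KO replicates. Its call was lost with quantile normalization. Hp, the haptoglobin that binds free hemoglobin, had 0.93, 0.79, and −0.48 in the WT replicates and 1.26, 2.01, and 1.13 in the Selenbp1-KO replicates, a difference of 1.05 (standard error 0.44, adjusted p = 0.279) that did not pass the unadjusted criterion although the genotypes did not overlap. Its lowest and highest arrays were the same as those of Trf and of the summed fat tissue markers. Hmox1, which breaks heme down and releases its iron, differed by −0.03 (standard error 0.14), with overlap.

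Of the 5 other mRNAs with an iron-responsive element, 1 was called, Alas2, the heme synthesis enzyme of red cell precursors. Its log2 signal was 0.82, 0.31, and 0.31 in the WT replicates and 1.48, 1.68, and 0.87 in the Selenbp1-KO replicates, a difference of 0.86 (standard error 0.26, adjusted p = 0.279 from limma). It is also 1 of the 9 red blood cell markers, of which 6 were called, all higher, against 6.87% of all genes. The 6 were Alas2 itself, Ahsp, and globin genes. Slc4a1 of the same list differed by 0.11, with overlap, and was not called. The summed level of that list was 306 to 403 in WT and 446 to 686 in Selenbp1-KO kidneys, a ratio of 1.59. Its globin genes Hbb-b1, Hbb-b2, and Hbb-bt, whose sequences are nearly identical and whose probes may share signal, differed by 1.26, 1.17, and 1.02. Ahsp and Epb42 were well above background on 0 of 6 arrays. The part of red blood cells in the result for Alas2 was not tested.

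**Figure D5:**
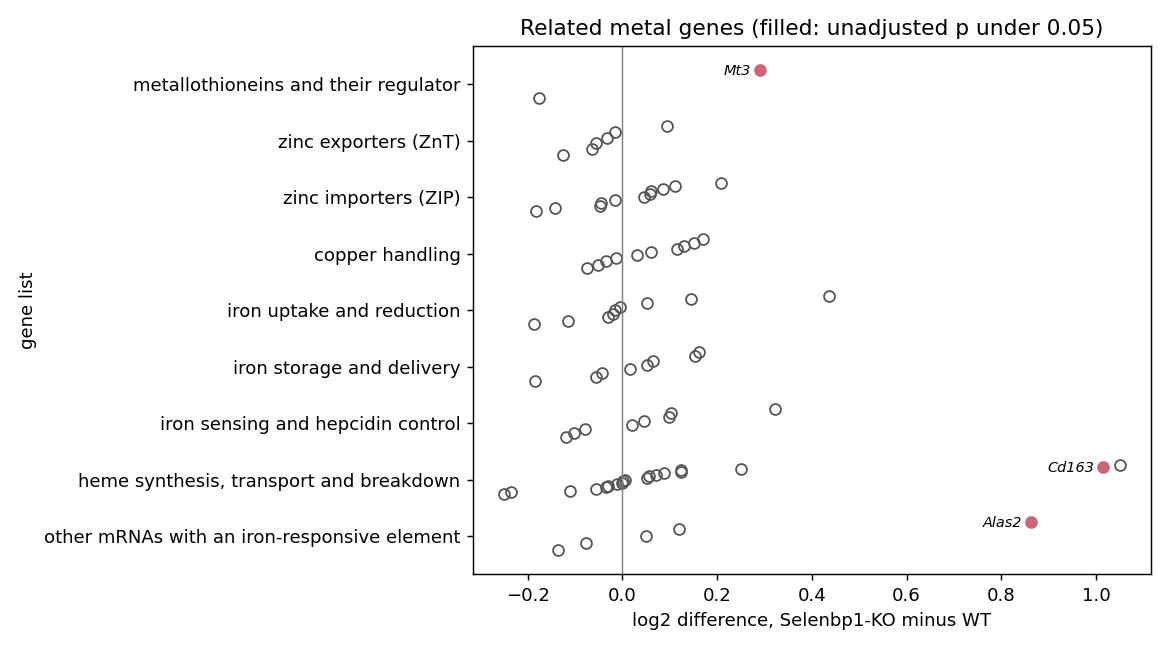
Log2 difference, Selenbp1-KO minus WT, on the x axis for the 78 related genes well above background on all arrays of WT, of Selenbp1-KO, or of both, by gene list on the y axis, with 1 circle per gene. Filled circles have an unadjusted p under 0.05. The 3 filled circles are Mt3 (0.29), Cd163 (1.01), and Alas2 (0.86), and the open circle beside Cd163 is Hp (1.05).

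Metallothionein genes also answer to glucocorticoids and to the acute phase response, so genes of both were read beside them. Of 10 glucocorticoid-responsive genes, 1 was called, Cdkn1a, an inhibitor of the cell cycle, which was higher by 0.58 (standard error 0.20). Fkbp5 and Tsc22d3, widely used readouts of glucocorticoid action, differed by −0.06 and −0.11 with overlap. With quantile normalization Tsc22d3 passed the unadjusted criterion with lower values in Selenbp1-KO kidneys (−0.16), and Fkbp5 did not. Of 10 acute phase genes, Orm1, which encodes a plasma glycoprotein, was higher by 1.18 (standard error 0.48). Its call was lost with quantile normalization, and its lowest and highest arrays were again WT replicate 4 and Selenbp1-KO replicate 2. Saa2 was also called, with lower values in Selenbp1-KO kidneys, but it was well above background on 2 WT arrays and on no other.

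The genes whose pattern over the 6 arrays was most like that of the metallothioneins were taken from 5143 genes that were well above background on all arrays and spanned at least 0.5 on the log2 scale. For Mt1 they were Oraov1 (r = 0.95), Pip5k1a (0.95), C1qtnf1 (0.94), Cd209a (0.93), and Gm35257 (0.93), and 19 genes had r over 0.9. For Mt2 the named genes were Th (r = 0.96), Rgs3 (0.94), and Dnah8 (0.92), beside 2 transcripts without a symbol (0.97 and 0.92), and 9 genes had r over 0.9. These values describe 6 arrays that share their scale, and no test was made. No gene was among the first 5 for both.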

How the data were processed

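Kidney RNA of 3 WT and 3 Selenbp1-KO mice was measured on 6 one-dye arrays. The authors deposited the output of Feature Extraction (version 10.7.1.1 per the file headers, 9.5.1.1 in the submitters' processing notes). Its intensities are linear, corrected for background and for trends across the array, and were deposited with a p-value of each spot against its background, computed by the same software. The authors also deposited a quantile normalized linear intensity per probe, with the same median (24.4) in all 6 columns. The labels and the methods name different RNA kits.

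The log2 processed signal was set relative to the log2 75th percentile of the 59305 non-control spots (477 to 751 per array). Outlier-flagged spots were left out, and the spots of a probe averaged. Probes detected on at least 1 array (detection p under 0.05, 56097 probes) entered a two-sided limma test (lmFit and eBayes, version 3.58.1, in R 4.3.3), with Benjamini–Hochberg adjustment over all of them. The script was tested on simulated data. The number of arrays limits the precision. Genes were named through RefSeq (32994 probes matched). Named are all members, up to 4 genes per list that passed the unadjusted criterion with a signal well above background on all arrays of a genotype, and the 5 genes most like Mt1 and Mt2. Uncalled genes other than members, and Slc39a12, Saa2, and Ahsp, were named after their values were seen. The members, lists, and tests were chosen with earlier results of these data known.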

Additional observations from a re-analysis of the deposited data

How the results depend on the processing

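Each result was recomputed under 19 alternatives: quantile normalization, the authors' quantile normalized values, scaling by the median, background correction by normexp (offset 50), 3 other filters on dim probes (1 of them, detection only above background, chosen after seeing the data), no removal of flagged spots, the methods' t-test, trend and robust options in limma (with statmod 1.5.0), the slide row and the replicate number as blocks, each array left out, and probes of a gene averaged, with a log2 difference of at least 0.5 added for the counts. The count of members called, 1, was 2 with quantile normalization, 0 with the slide row as a block, 0 with a difference of at least 0.5, and between 0 and 3 with an array left out, with 3 when WT replicate 4 was left out and 0 when it was WT replicate 3, Selenbp1-KO replicate 2, or Selenbp1-KO replicate 3. The count of related genes, 4, was 11 with quantile normalization and with the authors' values, 8 with trend and robust options, 7 with the methods' t-test and with probes averaged, 9 with the replicate block, and between 2 and 6 with an array left out, lowest without Selenbp1-KO replicate 3. The count over all genes, 2964, was 9756 with scaling by the median, 5213 with trend and robust options, 12286 with the replicate block, and between 1294 and 11812 with an array left out, the lowest when it was WT replicate 2 and the highest when it was WT replicate 4. Of the calls over all genes 85.8% were higher, against 57.6% with quantile normalization, which moved the median of all genes from 0.13 to 0.00, and 40.1% with the slide row as a block. The causes were not tested.

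Where a member changed sign, its value there was not called, except for Ftl1 with quantile normalization, and Fth1 and Ftl1 were called on the higher side without WT replicate 4. With quantile normalization the difference was −0.015 for Mt1, −0.078 for Fth1, and −0.15 for Ftl1, and with the authors' values it was −0.037 for Ftl1. With the slide row as a block it was 0.070 for Mt2, −0.066 for Slc39a14, −0.14 for Fth1, and −0.14 for Ftl1, and 0.37 for Slc11a1, which was no longer called, while that of Slc11a2 moved from 0.053 to 0.33. With probes averaged it was −0.024 for Tfrc and −0.019 for Slc11a2. With an array left out it ran from −0.10 to 0.094 for Mt2, −0.027 to 0.11 for Slc39a14, −0.057 to 0.12 for Tfrc, 0.067 to 0.30 for Fth1, 0.053 to 0.29 for Ftl1, −0.083 to 0.13 for Slc11a2, and 0.30 to 0.45 for Slc11a1.

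WT and Selenbp1-KO share replicate numbers 2 and 3, whose deviations from the group means correlated at 0.16 and 0.21, and nothing says that a number marks a shared litter or day. With the replicate block the difference was 0.045 for Mt2, −0.050 for Tfrc, and −0.072 for Slc11a2, and 1 member, Slc11a1, was called. Whether every sample correlates best with its own number could not be read from 2 shared numbers. A signal near background limits the second Slc40a1 probe and Slc39a12.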

Other observations

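Hamp, which encodes hepcidin, the hormone that removes ferroportin from the cell surface, was well above background on 2 Selenbp1-KO arrays and on no other. Its log2 signal was −5.77, −6.67, and −7.10 in the WT replicates and −7.05, −3.78, and −4.26 in the Selenbp1-KO replicates, so Selenbp1-KO replicate 1 lay within the WT range, and its difference had no unadjusted p under 0.05 (adjusted p = 0.398 from limma). Hpx, the plasma carrier of heme, had −3.37, −3.19, and −3.93 in the WT replicates and −5.70, −2.21, and −1.84 in the Selenbp1-KO replicates, with the same Selenbp1-KO replicate lowest. Both genes were chosen after their values were seen.

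Of 6 adrenal gland markers, none had an unadjusted p under 0.05. Only Star and Th were well above background on all arrays of at least 1 genotype. The summed level of the 6 markers, on the linear scale relative to the 75th percentile, was 0.242 to 0.272 in WT and 0.232 to 0.272 in Selenbp1-KO kidneys. Of 7 markers of the distal nephron and collecting duct, none was called either, with 264 to 280 in WT and 271 to 298 in Selenbp1-KO kidneys.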
